A study of Homo sapiens with 9 samples.

Results

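The transcripts of cells given the peptide CBRV1-10493 were compared directly with those of cells given the peptide NnK-1, in 6 of the 9 libraries of the series. All came from U-373MG, an established cell line that the labels call glioblastoma and astrocytoma. Each peptide was present at 200 nM for 48 h, with 3 libraries for CBRV1-10493 and 3 for NnK-1. The other 3 libraries, from untreated cells, entered the tests only in an alternative fit of all 9 libraries and are otherwise given as background. Both peptides are synthetic versions of ShK-like peptides from jellyfish. Dose and time were thus matched, and there was 1 comparison between the peptides. The libraries are 1 cell line. The labels call them biological replicates but do not say that each replicate was a separate culture. A p-value here thus reflects only how these samples vary, and that variation may be technical.

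ShK is a small disulfide-bonded toxin of a sea anemone that plugs the pore of voltage-gated potassium channels, above all Kv1.3, the product of KCNA3. Kv1.3 is best known from T cells, where it holds the membrane potential that drives calcium entry and NFAT signalling. In astrocytes and glioma cells potassium channels also take part in volume control and in buffering of extracellular potassium.

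No transcript passed edgeR's quasi-likelihood test between CBRV1-10493 and NnK-1 after adjustment for the number of genes, and edgeR's exact test called 1. Of the 13282 genes that passed a filter on low counts and were tested, 80.7% were bounded within 2-fold of equality. Among genes with many reads, ACTN4, an actin crosslinker, stood at 5966, 6112 and 5664 CPM (scaled counts per 1000000 counts) with CBRV1-10493 and at 5700, 5885 and 6069 CPM with NnK-1. KCNMA1, the calcium-activated potassium channel BK, stood at 200, 172 and 171 CPM against 164, 196 and 184 CPM. At 5 CPM or more, the smallest p belonged to PCMTD1, a protein with an isoaspartate methyltransferase domain, among genes with higher values under CBRV1-10493, and to PNKD among genes with lower values. As a group the genes of G2 and mitosis had slightly lower values with CBRV1-10493, with 41 of 50 estimates below 0, or 27 of 50 when NnK-1 replicate 1 was left out.

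The libraries held 11203094 to 12549625 counts with NnK-1 and 12090415 to 12211389 with CBRV1-10493, and between 15305 and 15847 genes had a read in each. Correlations of log2 CPM across genes, which are not independent replicates, ran from 0.965 to 0.978 over the 6 pairs of libraries with the same peptide and from 0.966 to 0.978 over the 9 pairs with different peptides. Across genes at 5 CPM or more, the median absolute log2 difference between 2 libraries was 0.193 for the typical pair with the same peptide and 0.187 for the typical pair with different peptides. Libraries of different peptides were therefore about as far apart as libraries of the same peptide. NnK-1 replicate 2 lay apart on principal component 1 (29.6% of the variance) and CBRV1-10493 replicate 1 on component 2 (21.1%), so counts are also given without them. Every pair differed by more than sampling noise (chi-square per degree of freedom of 6.75 or more), and each library counted as 1 sample.

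Of the astrocyte and neural progenitor markers, 11 of 18 were tested, and 0 had groups that did not overlap (8.7% of all tested genes). SOX2, a neural progenitor transcription factor, stood at 402, 431 and 454 CPM with CBRV1-10493 and at 392, 401 and 408 CPM with NnK-1. GFAP, the astrocyte filament protein, had 833 reads in the CBRV1-10493 libraries and 853 in the NnK-1 libraries, while AQP4 had 3 reads in all and ALDH1L1 and OLIG2 had none. The summed level of the 11 markers ran from 9490 to 11008 CPM with CBRV1-10493 and from 7978 to 11334 CPM with NnK-1, and NnK-1 replicate 2 held the lowest value. The neuron list, with 6 of 14 markers tested, was summed at 556 to 663 CPM against 589 to 795 CPM, and NnK-1 replicate 2 held the highest value. RBFOX3, a defining neuron marker, had no read. Of the oligodendrocyte list, 5 of 10 were tested at 392 to 418 CPM against 393 to 496 CPM in sum, and MOG and SOX10 had no read. Endothelial, epithelial and immune markers had 2 tested genes each. Their sums ran from 2.04 to 3.18 CPM against 0.551 to 3.48 CPM for the endothelial pair, from 10.8 to 13.7 CPM against 10.2 to 13.3 CPM for the epithelial pair and from 4.82 to 6.43 CPM against 3.06 to 4.95 CPM for the immune pair. EPCAM and CD3E had no read and PTPRC had 1. In bulk RNA, fewer cells of a type and less RNA per cell cannot be told apart.

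Transcripts of KCNA3 and of most other voltage-gated potassium channels were scarce under both peptides. KCNA3 had 1 read, in NnK-1 replicate 2, and none with CBRV1-10493, which allows a level of up to 0.0821 CPM (3 counts over the group, counting error only). The voltage-gated family was listed with 40 genes, of which 21 went without a read in these libraries and 3 were tested. The tested genes did not include a KCNA gene. KCNS3, a silent subunit that modulates other channels, stood at 18.5, 23.0 and 21.3 CPM with CBRV1-10493 and at 21.6, 30.4 and 26.9 CPM with NnK-1. The groups overlapped, and its log2 fold change, CBRV1-10493 minus NnK-1 here and throughout, was -0.33 (95% interval -0.70 to 0.05). KCNQ5, a channel of the M-current family, had 27, 12 and 20 reads against 38, 10 and 61, and KCNC4, a fast-activating channel, had 10, 9 and 14 against 13, 16 and 12. Their estimates, -0.88 (-2.16 to 0.39) and -0.36 (-1.73 to 1.02), bound little at these counts. KCNS3 moved to -0.21 without NnK-1 replicate 2 and to -0.13 without both libraries that lay apart. KCNQ5 moved to -0.28 without NnK-1 replicate 3 and to -1.61 without both libraries, and KCNC4 ranged from -0.56 without CBRV1-10493 replicate 3 to -0.10 without both. The summed level of the 3 tested genes was 21.5 to 24.8 CPM with CBRV1-10493 and 25.6 to 32.9 CPM with NnK-1, without overlap, and 23.5 to 28.2 CPM in untreated cells.

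Other potassium channels were better covered at the top of the list, with 6 of 38 tested. KCNMA1 was bounded within 1.5-fold, at a log2 fold change of -0.00 (-0.23 to 0.23). KCNN3, a small-conductance calcium-activated channel, stood at 10.3, 9.36 and 8.90 CPM with CBRV1-10493 and at 5.58, 5.05 and 6.87 CPM with NnK-1. The groups did not overlap, and the untreated libraries, at 4.63, 6.42 and 5.54 CPM, lay with NnK-1. Its log2 fold change of 0.71 (0.14 to 1.27) did not pass the test. Without both libraries that lay apart the estimate for KCNN3 was 0.55 (-0.12 to 1.23), an interval that includes 0. KCNJ2, an inward rectifier, gave 0.70 (-0.22 to 1.62) with overlapping groups, and 0.37 without NnK-1 replicate 2, 1.26 without NnK-1 replicate 1 and 0.24 without both libraries that lay apart. KCNJ10, the inward rectifier of astrocytes, gave 1.15 (-0.48 to 2.79) at about 1 CPM, and 2.08 without NnK-1 replicate 2. The median of the 6 was 0.47, beside -0.00 for all tested genes. It was 0.19 without NnK-1 replicate 1, 0.31 without NnK-1 replicate 2 and 0.25 without both libraries that lay apart.

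A direct comparison asks whether transcript levels differ between the 2 peptides. With untreated cells left out, it cannot show whether either peptide changed a transcript. Over 13282 tested genes, 0 were higher (0%) and 0 lower (0%) with CBRV1-10493 at an adjusted p under 0.05 (edgeR quasi-likelihood, Benjamini-Hochberg), and the smallest adjusted p was 0.9999. DESeq2 and limma-voom also called 0, and edgeR's exact test called 1. At an unadjusted p under 0.05 stood 477 genes (3.59%), of which 216 were higher (1.63%) and 261 lower (1.97%), where 664 would be 5% of the genes. With upper-quartile scaling the split was 275 higher of 476. The count depended on single libraries: it was 1149 without NnK-1 replicate 1, 833 without CBRV1-10493 replicate 1, 300 without CBRV1-10493 replicate 2 and 718 without both libraries that lay apart, and 0 genes passed after adjustment in each of these. All 3 libraries of one peptide lay beyond all 3 of the other for 1156 genes (8.7%), 571 higher (4.3%) and 585 lower (4.4%). Of all log2 fold changes 49.7% were above 0, and their median was -0.00. For a single gene, an exact permutation test of 3 against 3 libraries cannot go below p = 0.1.

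**Figure D1:**
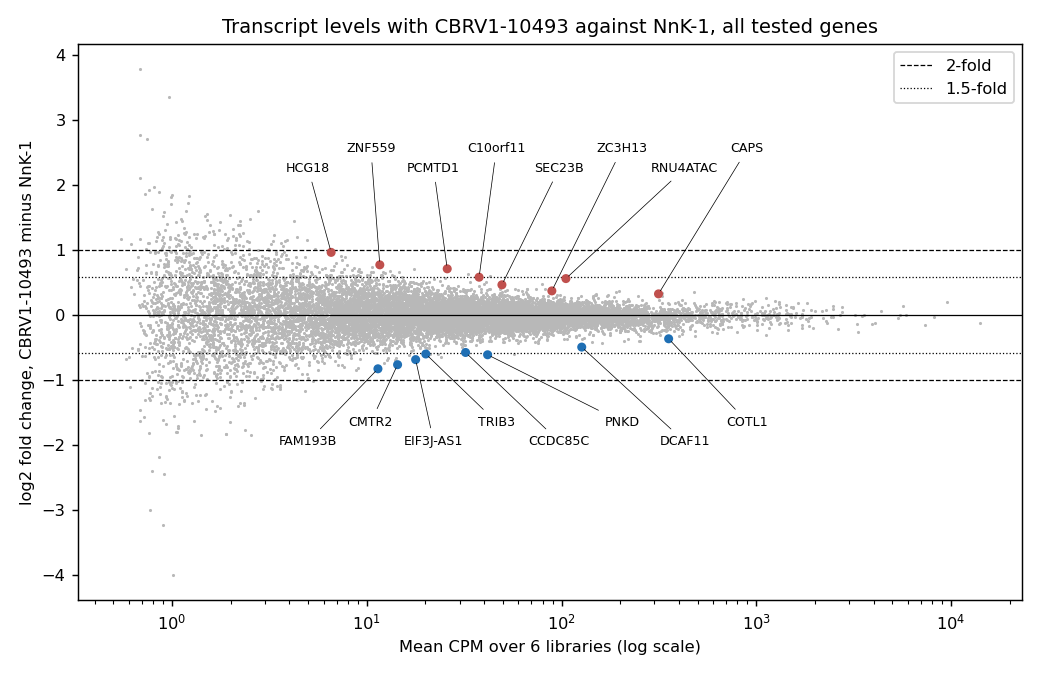
Each point is 1 of the 13282 tested genes, with its mean CPM over the 6 libraries on a log axis and its log2 fold change (CBRV1-10493 minus NnK-1) on the vertical axis. Points narrow towards 0 as counts increase, and the 16 coloured genes, the 8 with the smallest p in each direction at 5 CPM or more (red higher, blue lower), lie at the edge of the cloud and did not pass the adjusted test.

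Since a p above the threshold does not show equal levels, each gene was also tested for lying inside a margin. This used 2 one-sided tests on the same fit, with adjustment over all genes. Of 13282 genes, 10712 (80.7%) were bounded within 2-fold of equality and 7393 (55.7%) within 1.5-fold. For the median gene the 95% interval reached 0.39 to each side on the log2 scale, or 1.31-fold, and the bound farther from 0 stood at 0.54, or 1.45-fold. How large a difference the data bound depended on the level of the transcript. Among the 2156 genes at 100 CPM or more, the farther bound was 1.24-fold for the median gene and 1.36-fold for the gene at the 90th percentile, and 98.4% were bounded within 1.5-fold. Among the 4924 genes at 20 to 100 CPM the median bound was 1.34-fold and 99.9% were bounded within 2-fold. At 5 to 20 CPM (3522 genes) it was 1.65-fold, with 91.5% within 2-fold and 25.7% within 1.5-fold. At 1 to 5 CPM (2347 genes) it was 2.81-fold with 17.7% within 2-fold, and under 1 CPM (333 genes) it was 4.55-fold with none. The adjustment limits the expected share of wrong entries among the genes called bounded, so a bounded gene can have a 95% interval that passes the margin. The 95% interval itself lay within 2-fold for 10375 genes (78.1%). At 1 to 5 CPM it did so for 232 genes, where 416 were bounded. With intervals widened so that all genes are covered at once, 3398 genes (25.6%) lay within 2-fold, and 89.2% of those at 100 CPM or more.

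**Figure D2:**
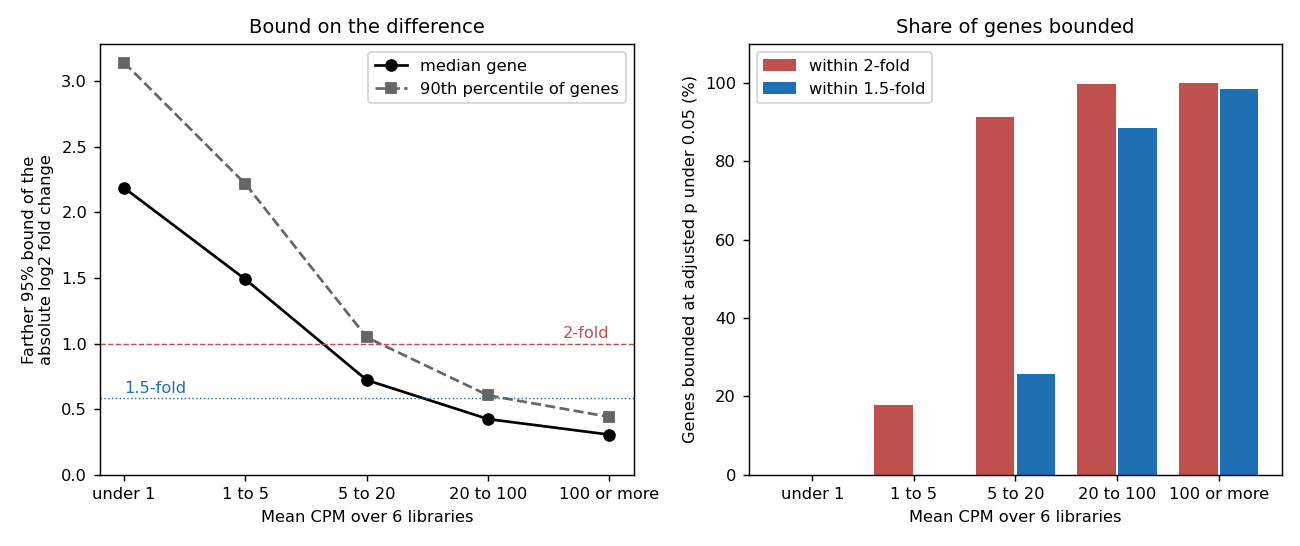
Left, the farther end of the 95% interval of the absolute log2 fold change for the median gene (circles) and the 90th percentile of genes (squares), by mean CPM. Right, the percentage of genes bounded within 2-fold (red) and 1.5-fold (blue) at an adjusted p under 0.05: from 20 CPM upwards nearly every gene was bounded within 2-fold, and under 1 CPM none was.

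Estimates beyond 2-fold came almost wholly from low counts. Of 225 such genes, 118 higher and 107 lower, 2 had 5 CPM or more. One was CALCOCO1, an autophagy receptor, at 10.3, 5.94 and 5.63 CPM with CBRV1-10493 against 4.56, 2.94 and 3.31 CPM (log2 fold change 1.01, 0.27 to 1.75). The other was the zinc finger gene ZNF836, at 6.48, 1.06 and 3.02 CPM against 6.60, 8.72 and 6.04 CPM (-1.01, -1.98 to -0.05), named after its values were seen. The CBRV1-10493 values of ZNF836 were spread widely and its groups overlapped. For 11 genes, all under 5 CPM, the 95% interval lay wholly beyond 1.5-fold. The call of the exact test, RNASEH2B-AS1, was also named after its values were seen. This antisense RNA had 0, 1 and 3 reads with CBRV1-10493, 24, 30 and 13 with NnK-1 and 5, 24 and 13 in untreated cells, so the controls spanned the range between the peptides. Its adjusted p was 0.0161 in edgeR's exact test and 0.9999 in the quasi-likelihood test.

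The 6 most heavily counted transcripts were closely bounded. ACTG1, cytoplasmic actin, stood at 15522, 12421 and 12349 CPM with CBRV1-10493 and at 14440, 15857 and 13482 CPM with NnK-1, a log2 fold change of -0.12 (-0.32 to 0.08). The calcium-binding protein gene S100A6 gave -0.03 (-0.22 to 0.16), and ACTN4 gave 0.01 (-0.16 to 0.17). The nuclear noncoding RNA MALAT1 gave 0.20 (-0.08 to 0.47), SERF2 -0.16 (-0.44 to 0.12) and the filament protein VIM 0.14 (-0.18 to 0.47). All 6 were bounded within 1.5-fold. For MALAT1, SERF2 and VIM that bound was lost when single libraries were left out (adjusted p of 0.0505 to 0.113), and for VIM, whose NnK-1 values ran from 3774 to 7164 CPM, also with a robust prior (0.0724).

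Among genes with higher values under CBRV1-10493 at 5 CPM or more, PCMTD1 had the smallest p. It stood at 35.6, 30.0 and 30.9 CPM with CBRV1-10493 and at 17.7, 19.6 and 21.7 CPM with NnK-1, and the untreated libraries, at 32.9, 29.1 and 36.2 CPM, lay with CBRV1-10493. The log2 fold change was 0.71 (0.37 to 1.05). C10orf11, now named LRMDA and linked to melanocyte differentiation, stood at 42.2, 47.0 and 46.5 CPM against 31.7, 26.7 and 32.3 CPM (0.58, 0.28 to 0.88). SEC23B, a coat protein of vesicles leaving the endoplasmic reticulum, stood at 59.4, 54.0 and 58.6 CPM against 41.6, 35.2 and 47.8 CPM (0.46, 0.17 to 0.76). ZC3H13, part of the complex that methylates adenosine in messenger RNA, stood at 96.5, 104 and 101 CPM against 74.9, 74.7 and 83.7 CPM (0.37, 0.14 to 0.61). None of these 4 genes had overlapping groups, and none passed the adjusted test.

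The other genes on the higher side differed in how far they could be separated. CAPS, the calcium-binding protein calcyphosine, stood at 320, 358 and 372 CPM against 271, 269 and 299 CPM, a log2 fold change of 0.33 (0.12 to 0.53). It was bounded within 1.5-fold, so its estimate lay between equality and that margin. HCG18, a long noncoding RNA, stood at 9.97, 8.63 and 7.43 CPM against 4.40, 4.13 and 4.80 CPM (0.96, 0.36 to 1.57), and its untreated values of 7.60 to 11.2 CPM lay with CBRV1-10493. RNU4ATAC, which is part of the minor spliceosome, stood at 96.9, 167 and 113 CPM against 90.5, 80.0 and 84.8 CPM (0.56, 0.23 to 0.89), and its estimate was 0.30 without CBRV1-10493 replicate 2. The zinc finger gene ZNF559 stood at 19.0, 10.6 and 14.6 CPM against 9.03, 8.45 and 8.36 CPM (0.77, 0.26 to 1.29), and its interval reached 0 without both libraries that lay apart (0.54, -0.06 to 1.13). RNU4ATAC lies within CLASP1, HCG18 overlaps TRIM39 and CAPS overlaps RANBP3 in RefSeq (GRCh38.p14). How overlapping genes were counted is not known here, so the source of those reads is uncertain.

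On the lower side, PNKD, the gene of a paroxysmal dyskinesia, had the smallest p at 5 CPM or more. It stood at 38.5, 27.6 and 32.9 CPM with CBRV1-10493 and at 43.1, 60.6 and 47.8 CPM with NnK-1, a log2 fold change of -0.61 (-0.95 to -0.27), and 7 annotated genes overlap it. COTL1, which binds filamentous actin, stood at 344, 291 and 296 CPM against 398, 435 and 366 CPM. Its log2 fold change was -0.37 (-0.58 to -0.15), and it was bounded within 1.5-fold (adjusted p = 0.0449 in the margin test on the edgeR fit). TRIB3, a pseudokinase induced in the integrated stress response, stood at 15.5, 17.7 and 14.7 CPM against 23.3, 26.9 and 22.4 CPM (-0.60, -0.97 to -0.23), with untreated values of 12.1 to 22.9 CPM. The groups of these 3 genes did not overlap. CCDC85C, a coiled-coil protein of apical junctions, gave -0.58 (-0.92 to -0.24), and EIF3J-AS1, a noncoding RNA, -0.69 (-1.10 to -0.28). CMTR2, which methylates the messenger RNA cap, gave -0.76 (-1.23 to -0.30), and FAM193B gave -0.83 (-1.33 to -0.33), each without overlap. DCAF11, a substrate receptor of a ubiquitin ligase, gave -0.49 (-0.80 to -0.18). Its groups overlapped, since CBRV1-10493 replicate 1 at 136 CPM lay above NnK-1 replicate 1 at 132 CPM.

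**Figure D3:**
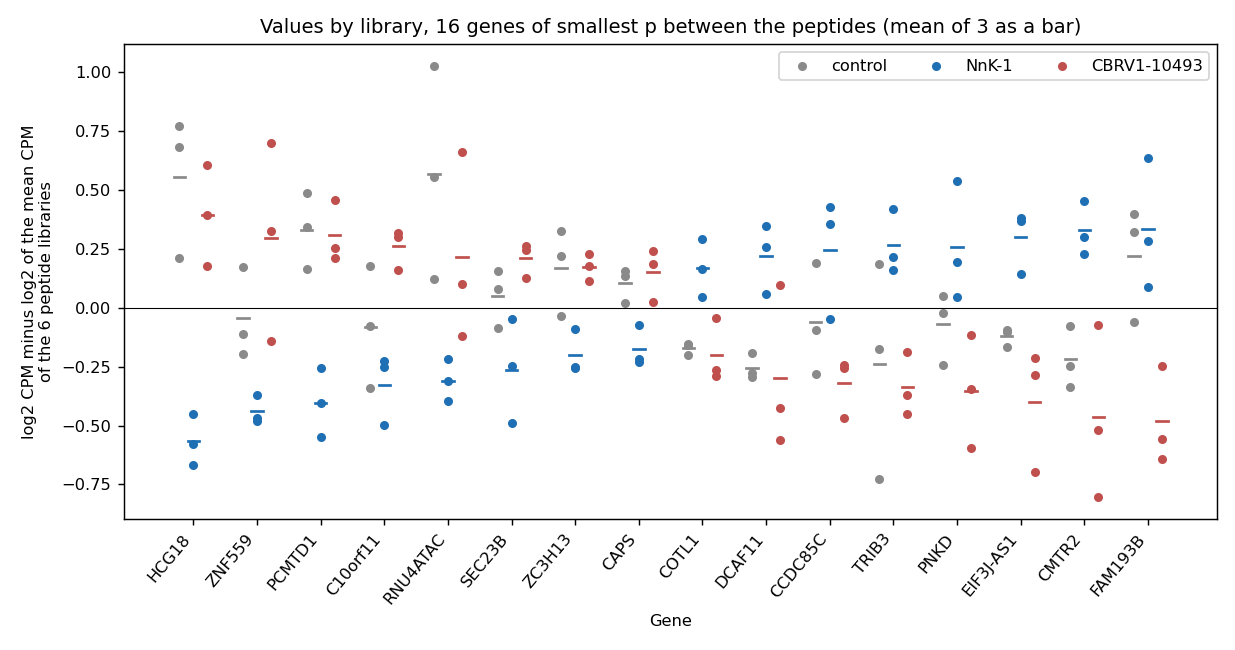
Points are single libraries of untreated cells (grey), NnK-1 (blue) and CBRV1-10493 (red), short bars are means of 3, and the vertical axis is log2 CPM minus the log2 mean CPM of the 6 peptide libraries. The 16 genes are those with the smallest p, chosen for that difference. The untreated libraries lay near CBRV1-10493 for genes such as PCMTD1, ZC3H13, CAPS, HCG18, COTL1 and DCAF11, and near NnK-1 for FAM193B.

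By size, the largest differences without overlap at 5 CPM or more were close to the lower limit of that range. Besides CALCOCO1 and HCG18, MBIP, a subunit of a histone acetyltransferase complex, stood at 8.15, 11.5 and 9.39 CPM with CBRV1-10493 against 5.42, 2.02 and 7.95 CPM (0.91, 0.13 to 1.69), and its estimate was 0.54 without NnK-1 replicate 2 and 1.36 without NnK-1 replicate 3. RNASE4, a secreted ribonuclease that shares its locus with ANG, gave 0.90 (0.22 to 1.58). On the lower side GRIK4, a kainate receptor subunit, stood at 2.91, 2.44 and 4.82 CPM against 6.36, 7.16 and 6.37 CPM (-0.97, -1.70 to -0.22). The zinc finger gene ZNF71 gave -0.85 (-1.44 to -0.26), and CLPB, a mitochondrial protein disaggregase, -0.82 (-1.46 to -0.19). Without both libraries that lay apart, CALCOCO1 went to 0.56 (-0.30 to 1.41), MBIP to 0.64 (-0.03 to 1.32) and CLPB to -0.33 (-0.97 to 0.32). GRIK4 went to -0.81 (-1.70 to 0.08), while RNASE4, at 1.09 (0.29 to 1.88), and ZNF71, at -0.76 (-1.40 to -0.13), stayed clear of 0.

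Some genes with few reads had none in one group. LST1 had 6, 30 and 0 reads with CBRV1-10493 and none with NnK-1 or in untreated cells. Its summed reads, scaled by library size, stood 11.7-fold above a floor of 3 counts over the NnK-1 group. Such a ratio leaves out the spread between libraries and is not a lower limit, since CBRV1-10493 replicate 3 also had 0 reads. ZNF169 had 9, 3 and 21 reads and CSRNP3 9, 13 and 6 against none with NnK-1, with ratios of 10.7 and 9.12. In the other direction TMPRSS11A had 7, 33 and 0 reads with NnK-1 and none with CBRV1-10493 or in untreated cells (ratio 13.7). TMEM139 had 0, 10 and 22 reads and LOC101929099 9, 13 and 6, with ratios of 10.9 and 9.56. In LST1 and TMPRSS11A most reads came from replicate 2 of the group. These 6 genes fell under the filter on low counts and were not tested, and no tested gene had a group without reads.

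Gene groups were described by counts and medians. In 27 lists with at least 5 tested members, 0 members were called. The medians ran from -0.10 to 0.47, beside -0.00 for all tested genes, and 23 of the 27 lay within 0.1 of 0. The summed level of a list separated the 3 libraries of one peptide from the 3 of the other in 2 of these lists. They were G2 and mitosis and the TGF-beta pathway, both with CBRV1-10493 below NnK-1. Of single tested genes 8.7% were separated in the same way, so the count of lists is not read as a result.

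**Figure D4:**
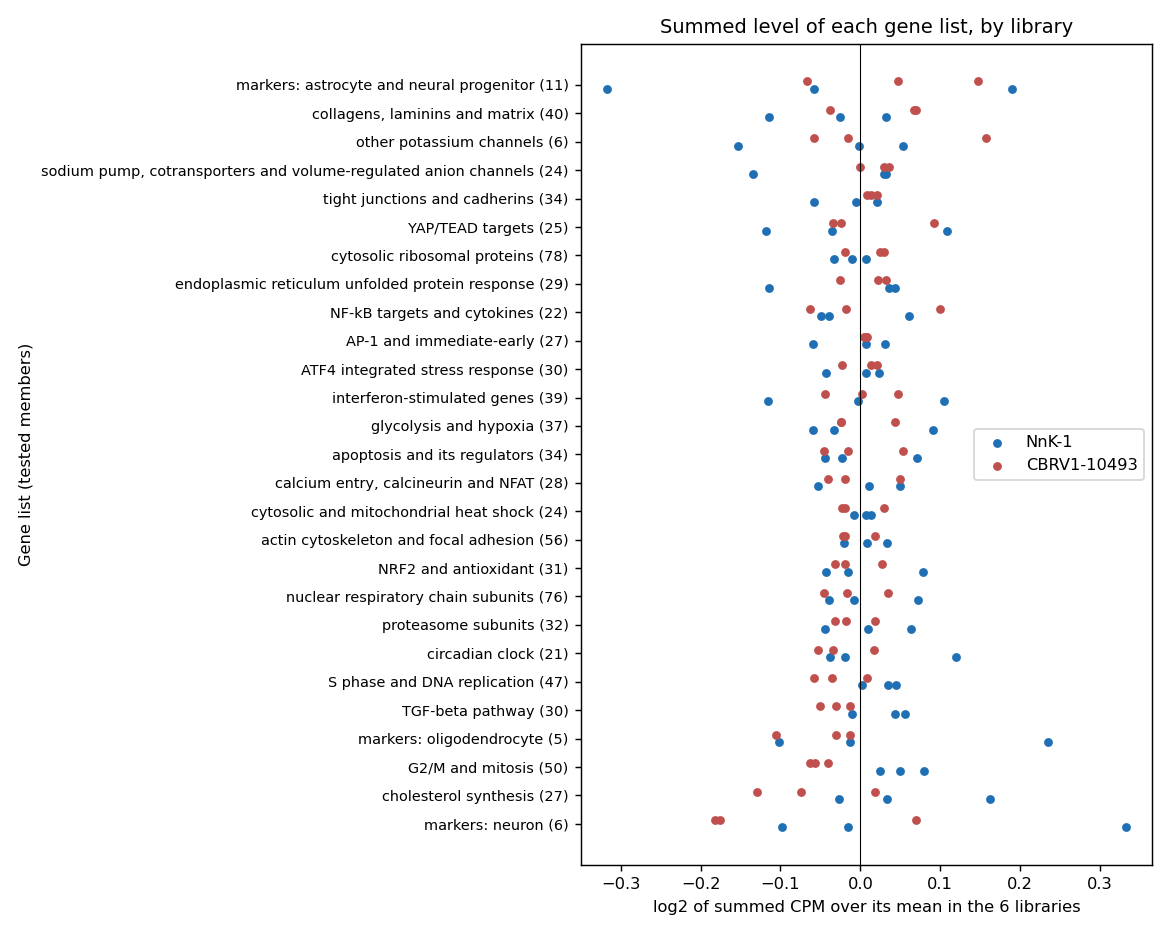
For each of the 27 lists (number of tested members in brackets), points are the log2 of the summed CPM in each library over its mean in the 6 libraries, NnK-1 in blue and CBRV1-10493 in red. The colours are separated for G2 and mitosis and for the TGF-beta pathway, and overlap in the other lists.

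Genes of G2 and mitosis leaned towards lower values with CBRV1-10493, each by a small amount. The 50 listed genes were all tested. Their summed level was 7233, 7196 and 7309 CPM with CBRV1-10493 and 7949, 7650 and 7784 CPM with NnK-1, and the untreated libraries, at 7453 to 7682 CPM, lay between the peptides save for an overlap with the lowest NnK-1 library. Of the 50, 9 had a log2 fold change above 0 (49.7% of all genes did) and the median was -0.10. At an unadjusted p under 0.05 stood 7, all lower (1.97% of all genes), and 12 had groups that did not overlap, all lower (4.4%). Every one was bounded within 2-fold and 45 within 1.5-fold. The lean depended on NnK-1 replicate 1: without it 23 genes were above 0, the median was -0.02, and 5 stood lower and 3 higher at an unadjusted p under 0.05. The median was -0.17 without NnK-1 replicate 2 and -0.16, with 10 genes above 0, without both libraries that lay apart. The genes lower at an unadjusted p under 0.05 numbered 4 without NnK-1 replicate 2 and 2 without CBRV1-10493 replicate 2 or 3. Whether the peptides' cultures differed in the share of dividing cells was not tested.

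Single mitotic genes showed the size of the differences. KIF2C, a microtubule-depolymerizing kinesin, stood at 73.5, 59.0 and 68.2 CPM with CBRV1-10493 and at 95.5, 78.9 and 85.5 CPM with NnK-1 (-0.37, -0.64 to -0.11). CCNB1, the cyclin of mitotic entry, stood at 140, 130 and 119 CPM against 179, 145 and 156 CPM (-0.30, -0.54 to -0.07). CKS1B, a subunit of cyclin-dependent kinases, stood at 106, 102 and 105 CPM against 125, 140 and 129 CPM (-0.33, -0.55 to -0.11). None of the 3 passed the adjusted test, and their groups did not overlap. TOP2A, the topoisomerase of dividing cells and the most heavily counted of the list, gave -0.10 (-0.29 to 0.09). Of 47 genes of S phase and DNA replication, all tested, 22 were above 0, and the median was -0.01. Among them RFC5, a subunit of the clamp loader, gave -0.29 (-0.55 to -0.04) without overlap, and RRM2, a subunit of ribonucleotide reductase, -0.20 (-0.41 to 0.01). TYMS, thymidylate synthase, gave -0.03 (-0.29 to 0.23).

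**Figure D5:**
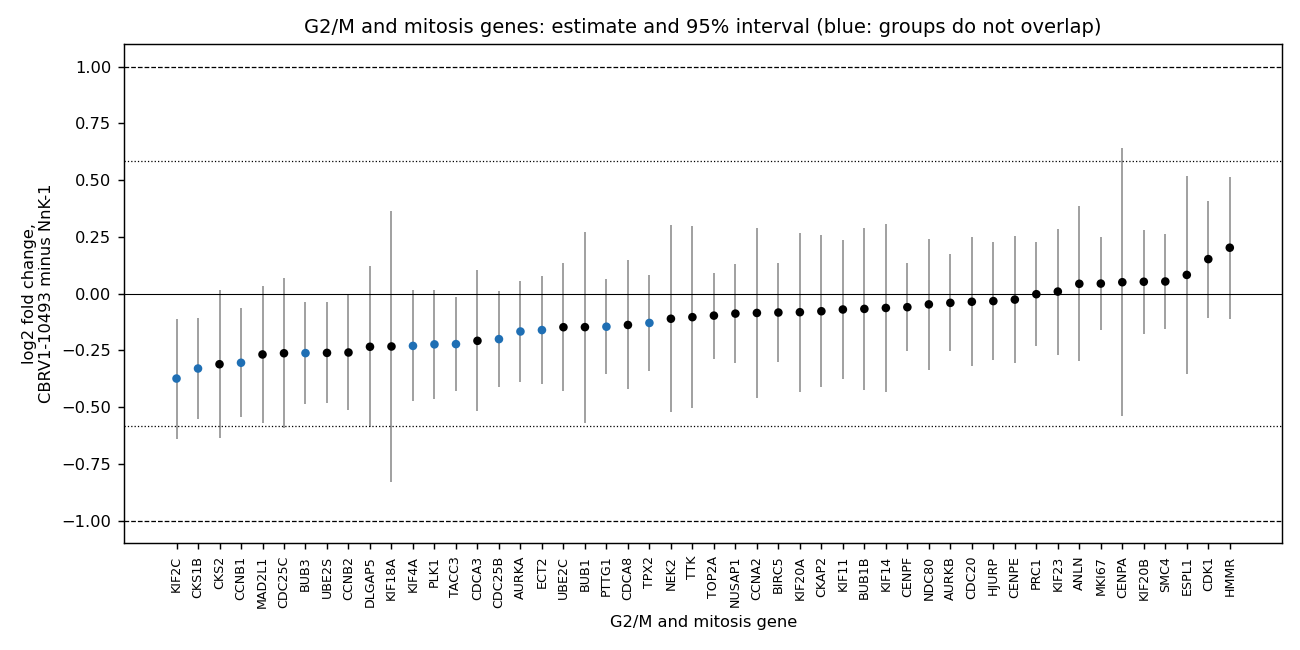
Log2 fold change (CBRV1-10493 minus NnK-1) with its 95% interval for the 50 genes of G2 and mitosis, in order of the estimate, blue where the groups did not overlap, with dashed lines at 2-fold and dotted lines at 1.5-fold. The estimates of 41 genes lay below 0, between 0 and -0.37, and all intervals ended inside the 2-fold lines.

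In the TGF-beta pathway, the ligands had opposite signs. TGFB1 stood at 14.4, 22.2 and 17.1 CPM with CBRV1-10493 and at 12.2, 11.5 and 10.3 CPM with NnK-1 (0.66, 0.21 to 1.12). TGFB2 stood at 163, 142 and 144 CPM against 166, 185 and 196 CPM (-0.29, -0.51 to -0.06). Neither had overlapping groups, and neither passed. The receptor gene BMPR1A gave -0.56 (-1.20 to 0.07), or -0.33 without CBRV1-10493 replicate 1, and ID3, a target of BMP signalling with far more reads, gave -0.11 (-0.31 to 0.08). Of 32 listed genes 30 were tested, 13 of them above 0, with a median of -0.01. The summed level was 2395 to 2458 CPM against 2463 to 2579 CPM, a narrow gap, and 2365 to 2463 CPM in untreated cells.

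Interferon-stimulated genes had mostly higher estimates with CBRV1-10493. Of 45 listed genes 39 were tested, 29 were above 0 and the median was 0.13. The median was 0.06 without CBRV1-10493 replicate 2 and 0.12 without both libraries that lay apart. At an unadjusted p under 0.05 stood 4, all higher (1.63% of all genes), 3 had groups that did not overlap (4.3%), and 29 were bounded within 2-fold (80.7%). The 4 became 1 without NnK-1 replicate 3 or CBRV1-10493 replicate 2, and without NnK-1 replicate 1 there were 5 higher and 2 lower. SAMD9, an antiviral effector, stood at 26.9, 34.6 and 34.7 CPM against 27.7, 23.5 and 20.6 CPM (0.42, 0.06 to 0.78). IFI44L stood at 4.16, 7.17 and 3.59 CPM against 2.75, 2.94 and 1.90 CPM (0.97, 0.10 to 1.84), and an untreated library stood at 38.9 CPM. The estimate of IFI44L was 0.62 without CBRV1-10493 replicate 2. TRIM22, a restriction factor, gave 0.69 (0.03 to 1.35) with overlapping groups. IFITM3, a membrane-bound antiviral protein and the most heavily counted of the list, gave 0.00 (-0.24 to 0.24). The summed levels overlapped, at 1627 to 1732 CPM with CBRV1-10493 and 1548 to 1803 CPM with NnK-1.

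Calcium entry, calcineurin and NFAT genes belong to the pathway downstream of Kv1.3 in T cells. Of 30 listed genes 28 were tested, all 28 were bounded within 2-fold (80.7% of all genes) and 21 within 1.5-fold (55.7%). The bound depended on the level of a transcript. Of all genes at 20 to 100 CPM, 99.9% were bounded within 2-fold and 88.6% within 1.5-fold. The median log2 fold change of the list was 0.03. ORAI3, a store-operated calcium channel, gave 0.30 (-0.07 to 0.67), PPP3CB, a catalytic subunit of calcineurin, -0.21 (-0.46 to 0.04) and the calcium pump ATP2B4 -0.16 (-0.40 to 0.08). ORAI3 moved to 0.18 without NnK-1 replicate 1, and ATP2B4 ranged from -0.26 without NnK-1 replicate 1 to -0.10 without NnK-1 replicate 2 or CBRV1-10493 replicate 3. The calmodulin gene CALM2 gave 0.04 (-0.25 to 0.32). Of the sodium pump, cotransporter and volume-regulated anion channel genes, 24 of 27 were tested, 22 were bounded within 2-fold (80.7% of all genes) and 0 stood at an unadjusted p under 0.05 (3.59%).

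Genes of protein synthesis, protein turnover and respiration were closely bounded, as were most genes with many reads. Of all tested genes 80.7% were bounded within 2-fold and 55.7% within 1.5-fold. The share within 1.5-fold was 88.6% at 20 to 100 CPM and 98.4% at 100 CPM or more. All 32 proteasome subunit genes were bounded within 1.5-fold, as PSMA7 shows with 0.00 (-0.18 to 0.19). Of 78 cytosolic ribosomal protein genes, all were bounded within 2-fold and 73 within 1.5-fold, with 48 above 0 and a median of 0.03. RPS20 gave -0.01 (-0.18 to 0.16), RPL28 -0.28 (-0.49 to -0.07) and RPS29 0.19 (0.00 to 0.37). Of 76 nuclear genes for respiratory chain subunits, all were bounded within 2-fold and 73 within 1.5-fold. NDUFS1, a complex I subunit, stood at 33.2, 37.7 and 30.3 CPM against 28.6, 24.1 and 21.7 CPM (0.44, 0.10 to 0.79), without overlap. CYC1, cytochrome c1, gave -0.32 (-0.59 to -0.05) with overlapping groups, or -0.18 without NnK-1 replicate 2 and -0.21 without CBRV1-10493 replicate 3.

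In metabolism, 5 of the 27 tested cholesterol synthesis genes were above 0, with a median of -0.04. With upper-quartile scaling 11 were above 0, and without both libraries that lay apart 10 were, with a median of -0.13, and with single libraries left out the median ran from -0.09 to -0.04. HMGCS1, HMG-CoA synthase, gave -0.22 (-0.49 to 0.04), or -0.14 without CBRV1-10493 replicate 2, and FDFT1, squalene synthase, -0.18 (-0.41 to 0.06). Of the 27, 0 stood at an unadjusted p under 0.05 (3.59% of all genes), but 4 did, all lower, without CBRV1-10493 replicate 1, 2 without NnK-1 replicate 1 and 3 without both libraries that lay apart. The summed levels overlapped, and 26 were bounded within 2-fold (80.7%). Of 37 tested glycolysis and hypoxia genes, 13 were above 0. PDK1, which inhibits pyruvate dehydrogenase, stood at 47.5, 54.6 and 49.97 CPM against 59.5, 77.3 and 61.0 CPM (-0.38, -0.66 to -0.09), and its estimate was -0.25 without NnK-1 replicate 2 and -0.20 without both libraries that lay apart. ENO1, enolase, gave -0.04 (-0.22 to 0.14).

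Stress and inflammation genes gave few estimates clear of 0. Among 30 genes of the ATF4 stress response 2 stood at an unadjusted p under 0.05, both lower (1.97% of all genes): TRIB3, given above, and SLC1A5, a glutamine transporter, at -0.33 (-0.66 to -0.01). The estimate of SLC1A5 was -0.08 without NnK-1 replicate 2 and -0.13 without both libraries that lay apart. The median was 0.02. CANX gave 0.02 (-0.19 to 0.24) among the unfolded protein response genes. The heat shock gene HSP90AA1 gave -0.04 (-0.21 to 0.14), and HSF1, the regulator of that response, -0.32 (-0.58 to -0.06). The ferritin gene FTL gave -0.03 (-0.22 to 0.17) and GPX1, a glutathione peroxidase, -0.28 (-0.51 to -0.05) among antioxidant genes. Among apoptosis genes, PMAIP1, which encodes the apoptosis inducer NOXA, stood at 60.8, 51.0 and 55.3 CPM against 46.0, 42.4 and 41.6 CPM (0.36, 0.09 to 0.63). Of 22 tested NF-kB targets and cytokines, RELB gave 0.52 (0.06 to 0.98) and TRAF1 -1.14 (-1.97 to -0.31), both without overlap, while RELA gave -0.09 (-0.39 to 0.21). JUN, an immediate-early factor, gave 0.01 (-0.18 to 0.19).

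Adhesion and matrix genes held one of the larger estimates at low counts. CGN, cingulin, a tight junction protein, stood at 3.32, 4.80 and 4.33 CPM with CBRV1-10493 and at 1.49, 1.29 and 1.32 CPM with NnK-1, a log2 fold change of 1.59 (0.63 to 2.56) that did not pass. The untreated libraries, at 2.19 to 3.99 CPM, lay above all NnK-1 values. CDH4, a cadherin with far more reads, gave 0.05 (-0.17 to 0.27). Among matrix genes TGFBI gave 0.21 (0.00 to 0.42), or 0.11 without NnK-1 replicate 1, and SPARC 0.07 (-0.11 to 0.24). CALD1, caldesmon, stood at 1189, 1216 and 1272 CPM against 935, 1029 and 1110 CPM (0.26, 0.07 to 0.45), and PXN, paxillin, at 162, 146 and 136 CPM against 175, 198 and 166 CPM (-0.28, -0.51 to -0.05). Neither gene had overlapping groups. Of 25 YAP/TEAD targets, CTGF gave 0.17 (-0.11 to 0.46) and AXL, a receptor tyrosine kinase, -0.28 (-0.53 to -0.03), or -0.13 without NnK-1 replicate 2.

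Of 21 tested clock genes, 7 were above 0. CRY1, a repressor of the clock, stood at 8.73, 10.6 and 13.5 CPM with CBRV1-10493 and at 16.2, 18.8 and 16.7 CPM with NnK-1 (-0.66, -1.11 to -0.20). Its untreated values of 6.30 to 11.1 CPM overlapped CBRV1-10493 and not NnK-1. PER3 gave 0.64 (0.12 to 1.16) without overlap, or 0.43 without NnK-1 replicate 3. NFIL3 gave -0.76 (-1.46 to -0.06) with overlap, or -0.42 without NnK-1 replicate 2.

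CRY1 is one of 15 genes that had small p-values against untreated cells in an earlier analysis of these libraries, which shared the controls, so they are given only as values between the peptides. PPP2R2B, which encodes a brain-enriched subunit of the phosphatase PP2A, stood at 181, 187 and 187 CPM with CBRV1-10493, at 211, 224 and 216 CPM with NnK-1 and at 164, 165 and 167 CPM in untreated cells. The peptides did not overlap, yet the gene was bounded within 1.5-fold, at -0.23 (-0.43 to -0.03). RTCB, the ligase of tRNA splicing, gave -0.15 (-0.39 to 0.09), SCARNA22, a small Cajal body RNA, 0.11 (-0.18 to 0.40), and GCOM1 -0.05 (-0.32 to 0.21), all bounded within 1.5-fold. In RefSeq SCARNA22 overlaps NSD2, and GCOM1 overlaps MYZAP and POLR2M, so the source of their reads is uncertain. The host gene SNHG19 gave -0.37 (-0.68 to -0.06), or -0.20 without NnK-1 replicate 2. TSHZ3, a transcription factor, gave -0.04 (-0.73 to 0.65) and was bounded within 2-fold only. LOC100506022 had the most distant estimate of the 15, -2.39 (-4.13 to -0.66), at 0.332, 0.0814 and 0.327 CPM against 1.34, 1.10 and 1.57 CPM.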

How the data were processed

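Polyadenylated transcripts were counted near their 3′ ends (QuantSeq, Illumina NextSeq, single-end reads of 75 bp from 500 ng of total RNA, per the labels). The deposited files hold raw counts per gene symbol, 1 library each, made by the authors with Bowtie2, bedtools and hg19, per the submitters' processing notes. Versions, annotation and counting rules are not given in the sources used here. Groups came from the labels. Of 25737 entries, 286 symbols stood on several (1561 entries) and were summed, leaving 24462 symbols, 18116 of them with a read in the 6 libraries compared. Members, lists, tests and the rule for named genes were chosen with earlier results of these data known.

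Genes kept by filterByExpr (minimum count 10, minimum total 15) received TMM factors and a quasi-likelihood fit in edgeR 4.0.16 (R 4.3.3), without covariates, two-sided, with Benjamini-Hochberg adjustment at 0.05. The 13282 genes tested held 99.9% of the counts, and the common biological coefficient of variation was 0.173. Standard errors came from the fitted weights and the moderated dispersion, with intervals on 17.2 degrees of freedom. A gene was bounded within 2-fold or 1.5-fold when 2 one-sided tests placed its difference inside that margin at an adjusted p under 0.05. The method was tested on simulated data. CPM values are TMM-scaled, and untreated libraries were put on the same scale. Same-numbered libraries did not deviate together. The named genes were those with the 8 smallest p in each direction, the 4 largest without overlap, the 6 most counted, up to 4 per list, the tested voltage-gated channels and KCNA3, those without reads in 1 group, and 15 from the earlier analysis. A few that the rule named are not reported here. No set test was run. Alternatives used DESeq2 1.42.0, limma 3.58.1, other scalings, filters and thresholds, and libraries left out.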

Additional observations from a re-analysis of the deposited data

How the results depend on the processing

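No gene passed the adjusted test under any alternative except edgeR's exact test, which called 1, RNASEH2B-AS1, lower with CBRV1-10493. The smallest adjusted p was 0.0161 in the exact test, 0.0993 without the filter on low counts and 0.347 without NnK-1 replicate 1. Without that filter 18116 genes were tested, of which 59% were bounded within 2-fold and 40.3% within 1.5-fold. With each library left out in turn, 0 genes were called, 10128 to 10440 genes were bounded within 2-fold and 5707 to 6960 within 1.5-fold, and the median half-width of the 95% interval was 0.42 to 0.46. At a threshold of 0.01 the genes bounded within 1.5-fold came to 4741 and those within 2-fold to 9445. With all 9 libraries in 1 fit 13676 genes were tested, 0 called, 10787 bounded within 2-fold and 7598 within 1.5-fold. With the replicate number as a block 0 genes were called, 382 stood at an unadjusted p under 0.05, 10578 and 7187 were bounded within the margins and the half-width was 0.40. Deviations of same-numbered libraries correlated at -0.16, 0.02 and -0.03, so the numbers did not pair the samples. Of the 84 genes described by a difference none changed sign, which follows from how most were chosen. Of 32 genes whose bound within 1.5-fold was followed through the alternatives, 28 kept it. The bounds of CAPS, COTL1 and PPP2R2B, described above by their difference, were not followed in this way. CTGF lost its bound without NnK-1 replicate 1 (adjusted p = 0.0668). Alternatives chosen after seeing the data, limma-voom with library weights, a robust prior, and leaving out both libraries that lay apart, called 0 genes and bounded 10829, 10732 and 10102 within 2-fold. Genes under 5 CPM were bounded poorly at this depth.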
